A study of Mus musculus with 16 samples.

Results

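The pluripotency and preimplantation factors described here are 10 genes, Pou5f1, Nanog, Sox2, Lin28a, Dppa3, Zfp42, Esrrb, Tcl1, Sall4 and Tfap2c, measured in growing mouse oocytes labelled as conditional knockouts of the histone deacetylase genes Hdac1, Hdac2 or both. Their probe sets were chosen by name, as those to which the platform annotation gives exactly 1 of these symbols. This gave 12 probe sets for the 10 genes, with a pair each for Lin28a and Dppa3, out of 21218 probe sets with 1 symbol for 18820 genes. Affymetrix Mouse 1.1 ST arrays were hybridized with amplified RNA of 80 oocytes each, taken from the ovaries of C57BL/6 mice 12 days old, and how many mice each pool came from is not stated. The 4 genotypes, with 4 biological replicates each and 16 arrays in all, were wild type, Hdac1 knockout, Hdac2 knockout and the double knockout of both genes. All 3 mutant groups carried conditional alleles deleted by a Zp3-Cre transgene, whose promoter is active in oocytes once they begin to grow. Which alleles the wild-type mice carried, other than being called wild type, is likewise not given. The comparison asks how these transcripts differ in growing oocytes when either gene, or both, are deleted.

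HDAC1 and HDAC2, a closely related pair, are deacetylases of histone tails and work as the catalytic subunits of the same corepressor complexes. In the early embryo and in embryonic stem cells, OCT4 (encoded by Pou5f1), SOX2 and NANOG bind many regulatory sequences together, and ESRRB is a nuclear receptor of the same network. Several of these transcripts are also made and stored by the growing oocyte, where DPPA3, SALL4, TCL1 and LIN28A are known as maternal products.

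Deposited values, read here as log2 because their base is not stated, ran from 2.07 to 12.89, with array medians between 4.46 and 4.59. The medians differed by genotype: those of the double knockout were 4.54 to 4.59, and no other array was above 4.51. Arrays of 1 genotype correlated at 0.995 to 0.998 over probe sets, and wild-type with double-knockout arrays at 0.975 to 0.980. Both Hdac1 probe sets fell in the Hdac1 knockout, with log2 changes of -2.66 and -2.71, and in the double knockout, with -1.62 and -1.63. The single Hdac2 probe set lay at 11.02 to 11.18 in wild type, 10.95 to 11.01 in the arrays labelled Hdac2 knockout and 10.81 to 10.95 in the double knockout. Its change in the arrays labelled Hdac2 knockout was -0.10 (limma, adjusted p = 0.330) and in the double knockout -0.21 (adjusted p = 0.00274). It therefore does not check the deletion of Hdac2 in either group, whose names are those of the labels, and the part of the gene its probes read is not given. In the arrays labelled Hdac2 knockout both Hdac1 probe sets were higher than in wild type, by 0.35 (limma adjusted p = 0.0208) and 0.36 (adjusted p = 0.0172). All 12 oocyte markers examined, among them Zp3, Gdf9 and Nobox, lay above the 95th percentile of olfactory and vomeronasal receptor probe sets, and their summed linear level was 38385 to 39200 in wild type and 38097 to 38318 in the double knockout.

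In the double knockout, 8 of the 10 genes had a probe set that differed from wild type, 6 lower and 2 higher. By the brightest probe set of each gene, 6 were lower, 1 was higher and 3 were not called, Dppa3 being among these 3. Counted by probe set, 9 of 12 passed an adjusted p of 0.05 in limma, 7 lower and 2 higher, in a comparison where 38.3% of all tested probe sets passed, 3924 higher and 4198 lower. That background takes in dim probe sets, and of 1182 olfactory and vomeronasal receptor probe sets 5.92% passed. The share among probe sets as bright as the members was not counted. The members were also chosen with earlier results of these data known. The median change of the 12 was -0.24 on the log2 scale, against -0.01 for all tested probe sets, and their changes ran from -1.18 for Esrrb to 0.27 for Nanog. In 8 of the 12 the values of the 4 double-knockout arrays did not overlap those of the 4 wild-type arrays. Wild type was likewise not overlapped in 5 of the 12 by the arrays labelled Hdac2 knockout, and in 1 by the Hdac1 knockout. The share of all tested probe sets without overlap was not counted, so these counts have no background. Of the 9, 3 reached 1.4-fold, the limit that the study names for one of its own analyses. Among all 21218 tested probe sets, 3472 were called and reached it. Fewer transcripts per oocyte and fewer oocytes carrying them cannot be told apart in pooled RNA, and p-values rest on 4 arrays a group.

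In each single knockout, 0 of 12 member probe sets were called against wild type. For Hdac1 the background was 0.0707% of all tested probe sets and 2 members had an unadjusted p under 0.05 in limma, the brighter Lin28a probe set (-0.18, adjusted p = 0.327) and Dppa3 probe set 10541515 (-0.19, adjusted p = 0.503). For the arrays labelled Hdac2 knockout the background was 5.59% and 1 member had an unadjusted p under 0.05, Tcl1 (-0.17, limma adjusted p = 0.0931). That Tcl1 difference passed with arrays centred on their medians (limma adjusted p = 0.0436), when dim probe sets were left out (0.0454) and with an intensity trend (0.0361). The single knockouts did not differ from each other at any member by this test, with 0 of 12 against a background of 5.78% and 1 unadjusted p under 0.05 in limma, that of Esrrb. A missed threshold leaves room for small effects: the 95% interval for Esrrb in the arrays labelled Hdac2 knockout was -0.54 to 0.02, and that for Sox2 in the Hdac1 knockout was -0.36 to 0.42.

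**Figure D1:**
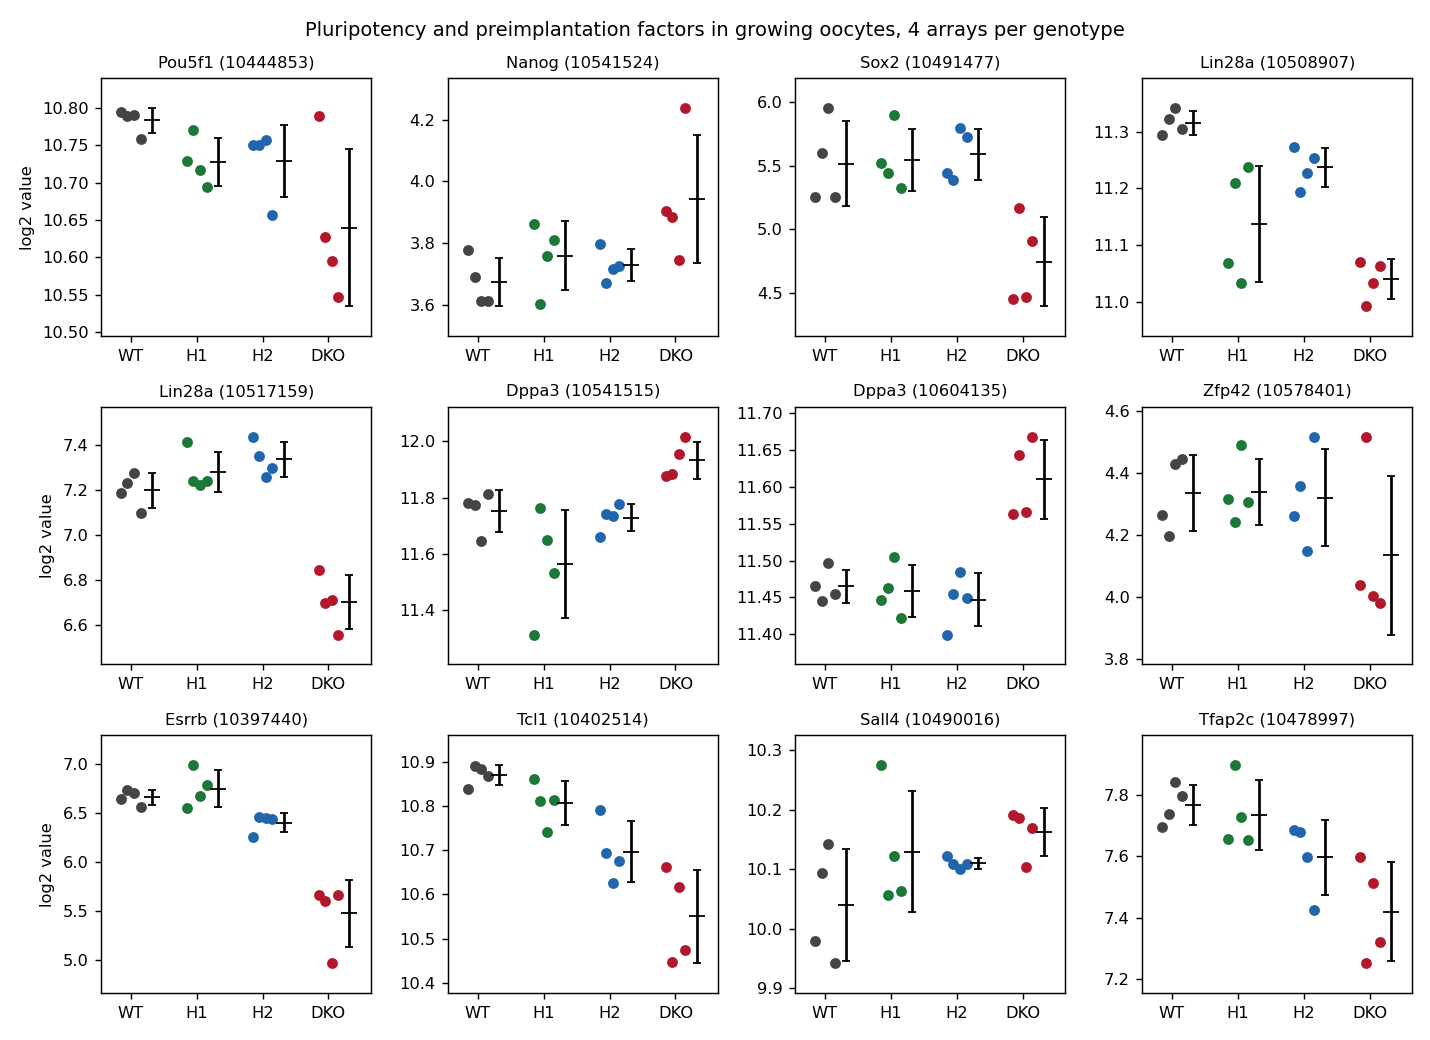
Log2 values of the 12 member probe sets on every array, with 1 panel per probe set and its own vertical scale. Points are arrays of wild type (WT), Hdac1 knockout (H1), the group labelled Hdac2 knockout (H2) and the double knockout (DKO), and bars give the mean and SD of 4 arrays. In the panels of Esrrb, Sox2 and Lin28a probe set 10517159 all 4 double-knockout points lie below every other point, and in both Dppa3 panels they lie above every other point.

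Esrrb, an orphan nuclear receptor that activates pluripotency genes in embryonic stem cells, changed most among the members. Its values on the wild-type arrays were 6.64, 6.73, 6.70 and 6.56, and on the Hdac1 knockout arrays 6.55, 6.99, 6.67 and 6.79. The arrays labelled Hdac2 knockout gave 6.25, 6.45, 6.45 and 6.44, and the double-knockout arrays 5.66, 5.61, 4.97 and 5.67. All 4 double-knockout arrays were thus lower than the other 12, and the arrays labelled Hdac2 knockout lay just below wild type without overlap. The mean went from 6.66 ± 0.07 in wild type to 5.48 ± 0.34 in the double knockout (SD, n = 4 each), a fall of 2.27-fold (log2 change -1.18, SE 0.13, limma adjusted p = 1.84e-06). Esrrb was also lower in the double knockout than in the Hdac1 knockout (-1.27, adjusted p = 8.27e-07) and than in the arrays labelled Hdac2 knockout (-0.92, adjusted p = 3.96e-05). These calls held in each of the 16 fits that left out 1 array.

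Sox2, the HMG-box factor that pairs with OCT4 on DNA, was the other transcription factor to fall past 1.4-fold. It read 5.25, 5.60, 5.95 and 5.25 in wild type, 5.52, 5.44, 5.90 and 5.32 on the Hdac1 knockout arrays and 5.44, 5.39, 5.79 and 5.73 in the arrays labelled Hdac2 knockout. In the double knockout it read 4.45, 5.17, 4.46 and 4.91. The first 3 genotypes overlapped one another throughout, and every double-knockout array lay below them, replicate 2 by the least. The fall from 5.52 ± 0.34 to 4.75 ± 0.35 (SD, n = 4 each) was 1.70-fold (log2 change -0.77, SE 0.18, limma adjusted p = 0.00266). Against the Hdac1 knockout the change was -0.80 (adjusted p = 0.00192), and against the arrays labelled Hdac2 knockout -0.84 (adjusted p = 0.00164).

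Pou5f1, whose product OCT4 is the POU-domain factor at the centre of the network, moved far less. Its 4 wild-type values were 10.79, 10.79, 10.79 and 10.76, the Hdac1 knockout values 10.73, 10.77, 10.72 and 10.69, and those labelled Hdac2 knockout 10.75, 10.75, 10.76 and 10.66. The double-knockout arrays read 10.79, 10.63, 10.59 and 10.55, so that replicate 1 stayed at the wild-type level and the other 3 were below all remaining arrays. The fall was 1.10-fold (log2 change -0.14, SE 0.05, limma adjusted p = 0.0433). This call was lost in 12 of the 16 fits without 1 array, with adjusted p up to 0.136 when replicate 4 of the double knockout was left out. It was also lost with only these genotypes in the fit (0.111) and with all probe sets of the table tested (0.0571). Scaling moved it the other way, to -0.23 with arrays centred (limma adjusted p = 0.00319) and -0.18 after quantile normalization (adjusted p = 0.0165).

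Nanog, the homeodomain factor of the inner cell mass and of embryonic stem cells, lay within the range of olfactory and vomeronasal receptor genes, whose transcripts serve here as a reference for dim values. Its mean was 3.67 in wild type and 3.94 in the double knockout, against a 95th percentile of 4.19 over 1182 olfactory and vomeronasal receptor probe sets in wild type. Wild type read 3.78, 3.69, 3.61 and 3.61, and the double knockout 3.90, 3.89, 3.75 and 4.24. The double-knockout values overlapped wild type at replicate 3, and replicate 4 was the highest. The change was 0.27 (SE 0.09, limma adjusted p = 0.0207), and of the receptor probe sets 5.92% were called in the same comparison, 35 higher and 35 lower. The Nanog call was lost when arrays were centred (adjusted p = 0.111), when only these 2 genotypes were fitted (0.0599), and without wild-type replicate 3 (0.0555), wild-type replicate 4 (0.056) or double-knockout replicate 4 (0.0696).

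Zfp42 encodes REX1, a zinc-finger protein used as a marker of embryonic stem cells. Its wild-type values of 4.27, 4.20, 4.43 and 4.45 lay just above the receptor percentile, and the double-knockout values were 4.04, 4.52, 4.004 and 3.98. In that group 3 arrays were below all wild-type arrays and replicate 2 was above them all. The change of -0.20 was not called (SE 0.11, limma adjusted p = 0.182). Without double-knockout replicate 2 it was -0.33 (adjusted p = 0.00794), and with arrays centred it was -0.29 (adjusted p = 0.0442).

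Tfap2c, an AP-2 factor of the trophectoderm and germ line, fell and Sall4, a spalt zinc-finger protein needed in oocytes and the inner cell mass, was not called. Tfap2c read 7.70, 7.74, 7.84 and 7.80 in wild type, 7.66, 7.90, 7.73 and 7.65 on the Hdac1 knockout arrays, 7.69, 7.68, 7.60 and 7.42 in the arrays labelled Hdac2 knockout and 7.60, 7.25, 7.51 and 7.32 in the double knockout. The double-knockout arrays did not overlap wild type but did overlap the arrays labelled Hdac2 knockout. The fall from wild type was 1.27-fold (log2 change -0.35, SE 0.08, limma adjusted p = 0.0029), and against the arrays labelled Hdac2 knockout the change of -0.18 was not called (adjusted p = 0.118). That last difference passed with arrays centred (-0.24, limma adjusted p = 0.0391), without replicate 4 of the group labelled Hdac2 knockout (adjusted p = 0.0463) and without double-knockout replicate 1 (0.0407). Sall4 read 9.98, 10.09, 10.14 and 9.94 in wild type and 10.19, 10.19, 10.10 and 10.17 in the double knockout. These overlapped, with a change of 0.12 (SE 0.06, limma adjusted p = 0.114) and a 95% interval from just below 0 to 0.25.

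Promoter windows are shown for Esrrb, Sox2 and Lin28a, the members with a probe set that fell past 1.4-fold (for Lin28a the dimmer one alone), and for Nanog, the member that went the other way at a low level, to set their sequences side by side. Each is the 250 bases before a RefSeq transcript start of assembly GRCm38.p6, on the strand of the gene, and Esrrb has 2 starts.
Esrrb, chr12:86360867-86361116, plus strand: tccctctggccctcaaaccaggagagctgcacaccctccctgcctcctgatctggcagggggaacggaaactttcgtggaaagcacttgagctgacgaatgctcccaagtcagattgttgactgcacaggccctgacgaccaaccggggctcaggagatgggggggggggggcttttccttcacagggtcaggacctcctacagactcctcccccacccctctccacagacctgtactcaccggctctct
Esrrb, chr12:86421394-86421643, plus strand: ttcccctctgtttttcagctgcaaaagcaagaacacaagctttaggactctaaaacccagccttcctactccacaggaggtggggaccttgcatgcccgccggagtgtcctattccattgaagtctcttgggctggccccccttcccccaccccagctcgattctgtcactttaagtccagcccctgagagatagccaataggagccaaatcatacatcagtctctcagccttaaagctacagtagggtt
Sox2, chr3:34649745-34649994, plus strand: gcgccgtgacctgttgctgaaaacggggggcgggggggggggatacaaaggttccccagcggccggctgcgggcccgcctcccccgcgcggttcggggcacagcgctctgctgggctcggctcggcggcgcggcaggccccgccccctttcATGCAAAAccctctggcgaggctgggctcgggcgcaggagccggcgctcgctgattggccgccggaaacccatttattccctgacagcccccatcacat
Lin28a, chr4:134018817-134019066, minus strand: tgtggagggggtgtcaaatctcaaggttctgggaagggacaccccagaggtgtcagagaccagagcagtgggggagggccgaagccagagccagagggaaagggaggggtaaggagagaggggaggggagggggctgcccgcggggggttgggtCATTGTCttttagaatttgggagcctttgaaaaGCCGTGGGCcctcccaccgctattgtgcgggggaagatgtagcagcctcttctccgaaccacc
Nanog, chr6:122707239-122707488, plus strand: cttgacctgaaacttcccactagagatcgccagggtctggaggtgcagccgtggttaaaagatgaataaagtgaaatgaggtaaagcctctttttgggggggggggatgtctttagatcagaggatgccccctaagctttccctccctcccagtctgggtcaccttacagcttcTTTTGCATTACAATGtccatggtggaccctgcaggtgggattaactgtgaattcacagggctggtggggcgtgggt
Capitals mark matches, on either strand, to ATGCAAAN (the octamer bound by POU factors such as OCT4), CATTGTN (the SOX motif) or GCCNNNGGC (the AP-2 motif). AAGGTCA, the core motif of ESRRB, was searched too. In Nanog the POU match, 76 to 69 bases before the start, is followed at once by the SOX match at 68 to 62, and this joined pair is the composite element through which OCT4 and SOX2 are known to act on Nanog. Sox2 holds a POU match 99 to 92 bases before its start, and Lin28a a SOX match at 96 to 90 and an AP-2 match at 63 to 55. Neither Esrrb window holds these letters, which says nothing about binding elsewhere. Windows were held for 7 of the 10 members, 10 windows in all, of which 4 had the POU motif, 4 the SOX motif, 2 the AP-2 motif and 0 the ESRRB motif. Both Nanog windows overlap and share their matches. Among all 32851 windows the shares were 4.12% for POU, 10.66% for SOX, 13.73% for AP-2 and 4.08% for ESRRB. No binding or acetylation was measured here, and windows for Dppa3, Sall4 and Tfap2c were not used here.

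Lin28a encodes an RNA-binding protein that blocks maturation of let-7 microRNAs and is abundant in oocytes. The brighter of its probe sets, 10508907, read 11.29, 11.32, 11.34 and 11.30 in wild type, 11.07, 11.21, 11.03 and 11.24 on the Hdac1 knockout arrays, 11.27, 11.19, 11.23 and 11.25 in the arrays labelled Hdac2 knockout and 11.07, 10.99, 11.03 and 11.06 in the double knockout. The dimmer probe set, 10517159, read 7.18, 7.23, 7.28 and 7.10 in wild type, 7.41, 7.24, 7.22 and 7.24 on the Hdac1 knockout arrays, 7.44, 7.35, 7.26 and 7.30 in the arrays labelled Hdac2 knockout and 6.85, 6.70, 6.71 and 6.56 in the double knockout. Both were lower in every double-knockout array than in every wild-type array. The fall was 1.21-fold for the brighter (log2 change -0.28, SE 0.05, limma adjusted p = 0.00042) and 1.41-fold for the dimmer (-0.49, SE 0.07, adjusted p = 1.98e-05).

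The Lin28a probe sets disagreed in direction on both single knockouts. In the arrays labelled Hdac2 knockout the brighter changed from wild type by -0.08, without overlap, and the dimmer by 0.14. Neither was called (limma adjusted p = 0.465 and 0.293). The brighter one had its Hdac1 knockout arrays below all wild-type arrays, and its change from the Hdac1 knockout to the double knockout was not called (-0.10, limma adjusted p = 0.16). That change passed with arrays centred (adjusted p = 0.0161) and after quantile normalization (0.0254). The dimmer one was lower in the double knockout than in the Hdac1 knockout (-0.57, limma adjusted p = 3.99e-06) and had a change of 0.08 from wild type to the Hdac1 knockout. Which parts of the transcript the probe sets read is not given. Lin28a lies on chromosome 4, as does Hdac1, with 80 protein-coding genes between them in the RefSeq gene order.

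Dppa3, also called Stella, is a maternal protein that protects the maternal genome from loss of DNA methylation after fertilization, and it moved up rather than down. Its probe set 10604135 read 11.47, 11.45, 11.50 and 11.45 in wild type, 11.45, 11.46, 11.50 and 11.42 on the Hdac1 knockout arrays, 11.40, 11.45, 11.49 and 11.45 in the arrays labelled Hdac2 knockout and 11.56, 11.64, 11.57 and 11.67 in the double knockout. Probe set 10541515 read 11.78, 11.77, 11.65 and 11.81 in wild type, 11.31, 11.76, 11.65 and 11.53 on the Hdac1 knockout arrays, 11.66, 11.74, 11.73 and 11.78 in the arrays labelled Hdac2 knockout and 11.88, 11.88, 11.95 and 12.02 in the double knockout. On both, every double-knockout array was above the other 12. The rise from wild type was 1.11-fold on the first (log2 change 0.14, SE 0.04, limma adjusted p = 0.0167), and the second changed by 0.18 without a call (adjusted p = 0.0831). Against the Hdac1 knockout both rose, by 0.15 (adjusted p = 0.0127) and 0.37 (adjusted p = 0.00109).

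The Dppa3 calls of probe set 10604135 depended on the scaling. Against wild type the call was lost when arrays were centred on their medians (0.05, limma adjusted p = 0.388), after quantile normalization (0.08, adjusted p = 0.166), with only these genotypes in the fit (0.058) and without double-knockout replicate 4 (0.055). Against the Hdac1 knockout it was lost with arrays centred (0.07, limma adjusted p = 0.231), after quantile normalization (0.09, adjusted p = 0.114) and with only those genotypes in the fit (0.0597). The rise of 10541515 against the Hdac1 knockout passed under both scalings, with 0.29 in each (limma adjusted p = 0.00715 and 0.00721). Against wild type, centring changed the count of called members from 2 higher and 7 lower to 0 higher and 8 lower, and that of all probe sets from 3924 higher and 4198 lower to 2895 and 6506. The medians used were those of all deposited probe sets, which were highest in the double knockout. Centring thus lowered every double-knockout change, that of Nanog from 0.27 to 0.18, although the median change of the tested probe sets was -0.01. After quantile normalization the members stood at 1 higher and 7 lower, and all probe sets at 3382 and 5025. The genes Dppa3 and Nanog are neighbours on chromosome 6 with 0 protein-coding genes between them. Against wild type Dppa3 was called higher on probe set 10604135 alone, and 10541515 was not called (limma adjusted p = 0.0831). Where in the genome the probe sets lie is not given, so that call cannot be placed at the chromosome 6 gene. A shared change of these neighbours was not tested. Retroposed copies of Dppa3, Nanog and Pou5f1 exist in the mouse genome, and whether the probe sets read them was not tested.

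**Figure D2:**
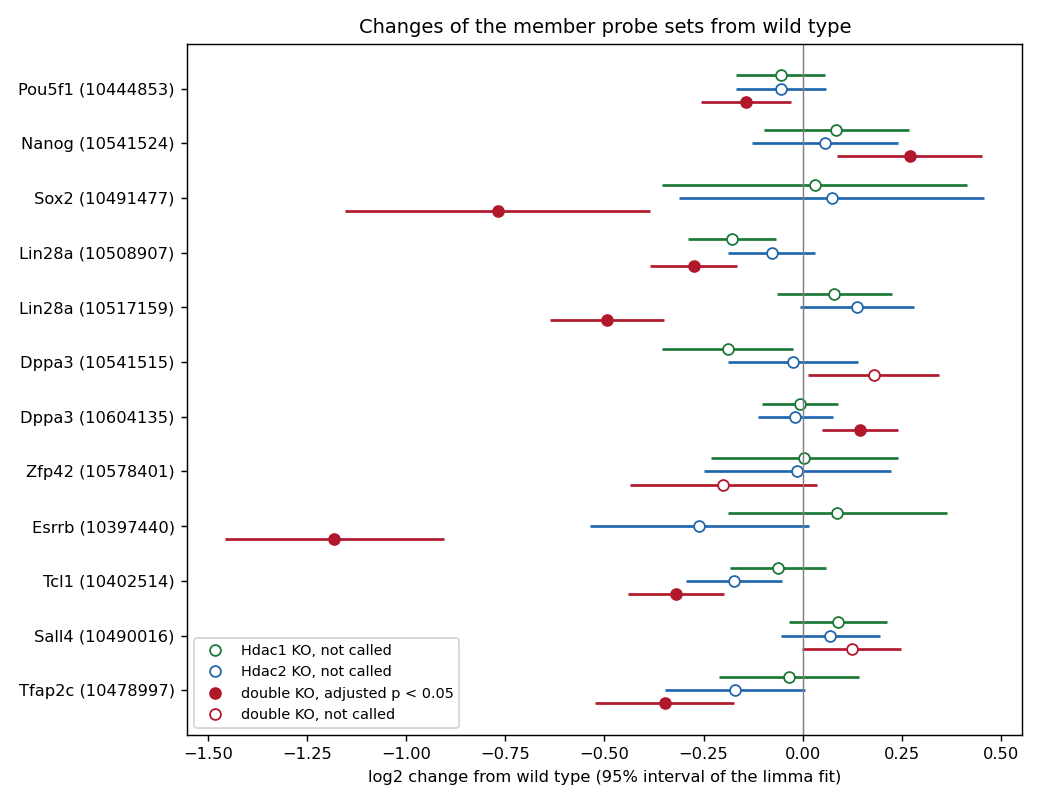
Log2 change from wild type of each member probe set in the Hdac1 knockout, in the arrays labelled Hdac2 knockout and in the double knockout, with the 95% interval of the limma fit over 16 arrays. Filled points passed an adjusted p of 0.05, and all 9 of them belong to the double knockout, from -1.18 for Esrrb to 0.27 for Nanog.

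Tcl1, a coactivator of the kinase AKT that is needed for normal cleavage of the embryo, fell together with the genes of its cluster. Tcl1 read 10.84, 10.89, 10.88 and 10.87 in wild type, 10.86, 10.81, 10.74 and 10.81 on the Hdac1 knockout arrays, 10.79, 10.69, 10.63 and 10.68 in the arrays labelled Hdac2 knockout and 10.66, 10.45, 10.62 and 10.47 in the double knockout. The double knockout and the arrays labelled Hdac2 knockout were each below all wild-type arrays, and they overlapped each other. The fall in the double knockout was 1.25-fold (log2 change -0.32, SE 0.06, limma adjusted p = 0.000243). The change from the arrays labelled Hdac2 knockout was -0.15 (adjusted p = 0.0577). That last difference passed with arrays centred (adjusted p = 0.00803), after quantile normalization (0.0286), with dim probe sets left out (0.0292) and with an intensity trend (0.0214).

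The Tcl1b genes are oocyte-expressed relatives that follow Tcl1 on chromosome 12, with 0 to 4 protein-coding genes between each and Tcl1. All 5 measured, Tcl1b1 to Tcl1b5, were lower in the double knockout. Tcl1b5 read 8.19, 8.15, 8.51 and 8.32 in wild type and 7.12, 6.96, 6.96 and 7.43 in the double knockout, with no overlap (-1.17, limma adjusted p = 1.7e-05). Tcl1b3 changed by -0.88, Tcl1b4 by -0.58, Tcl1b1 by -0.45 and Tcl1b2 by -0.31, the last with an adjusted p of 0.00143 in limma. Tcl1b5 and Tcl1b1 also differed in the arrays labelled Hdac2 knockout, by -0.74 (adjusted p = 0.012) and -0.19 (adjusted p = 0.0378), in a group whose label the Hdac2 probe set does not check. These genes are similar in sequence, and hybridization of one to the probes of another was not tested.

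**Figure D3:**
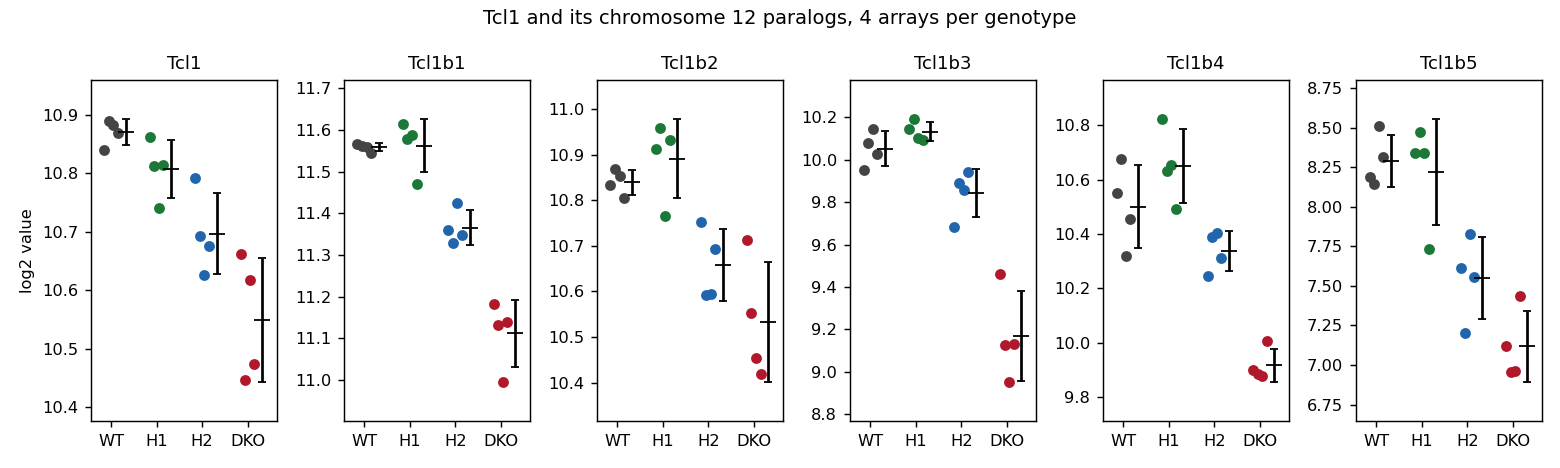
Log2 values of Tcl1 and its 5 relatives on chromosome 12 on each array, with a vertical scale per panel, for wild type (WT), Hdac1 knockout (H1), the group labelled Hdac2 knockout (H2) and double knockout (DKO). Points are arrays and bars give the mean and SD of 4. In each panel the double-knockout points lie below the wild-type points.

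Whether the double knockout departed from the sum of the single changes was tested as an interaction on the log2 scale. It was called for 4 of 12 member probe sets, against a background of 23.3%. Esrrb departed from the sum by -1.01 (SE 0.18, limma adjusted p = 0.000798), Sox2 departed by -0.87 (SE 0.26, adjusted p = 0.0208) and Lin28a 10517159 by -0.71 (SE 0.10, adjusted p = 5.94e-05). Dppa3 10541515 departed upward by 0.39 (SE 0.11, adjusted p = 0.016). For the remaining 8, Pou5f1, Nanog, Zfp42, Tcl1, Sall4, Tfap2c and the other probe set of Lin28a and of Dppa3, no departure was called. For Tcl1 the departure was -0.08 (SE 0.08), and for Sall4 -0.04 (SE 0.08).

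Compared with each single knockout directly, fewer members were called in the double knockout. Against the Hdac1 knockout 7 of 12 passed, 2 higher and 5 lower, with 38.7% of all probe sets called. Against the arrays labelled Hdac2 knockout 5 of 12 passed, 1 higher and 4 lower, with 33.7% called, and the 5 were Sox2, both Lin28a probe sets, Esrrb and Dppa3 10604135. Dppa3 10604135 was lost there with arrays centred (0.10, limma adjusted p = 0.116) and after quantile normalization (0.10, adjusted p = 0.0796), which left 0 members higher and 6 or 5 lower. The count of 5 rose to 8 without double-knockout replicate 1. These comparisons share the double-knockout arrays with each other and with the comparison to wild type, so they are not separate evidence.

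**Figure D4:**
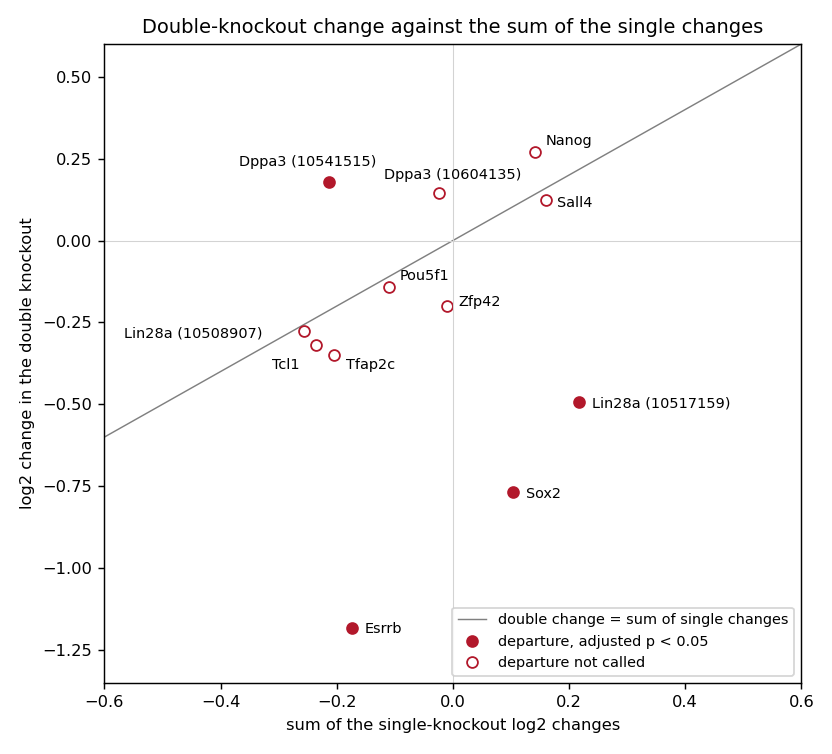
For each member probe set, the log2 change in the double knockout (vertical axis) against the sum of the changes in both single knockouts (horizontal axis), with a line where they are equal. Filled points have a departure from the line with an adjusted p under 0.05, namely Esrrb (-1.01), Sox2 (-0.87) and Lin28a 10517159 (-0.71) below it and Dppa3 10541515 (0.39) above it.

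Relatives of the members outside the Tcl1 cluster moved in both directions. Of 14 measured there, 4 were lower, 2 higher and 8 not called in the double knockout, with a median of 0.06, and with the 5 Tcl1b genes the list stood at 9 lower and 2 higher of 19, with a median of -0.02. Over all tested probe sets 38.3% were called in this comparison. Lin28b, the relative of Lin28a, changed by -0.96 (SE 0.09, limma adjusted p = 4.39e-07). Esrrg, a sister receptor of Esrrb, changed by -1.07 (adjusted p = 0.000159), and in the arrays labelled Hdac2 knockout by -0.71 (adjusted p = 0.0307). Sall2 changed by -0.58 and Tfap2e by -0.31. Tfap2a, an AP-2 factor like Tfap2c, rose by 0.90 (SE 0.11, limma adjusted p = 4.87e-06) while Tfap2c fell, and Yy1, the gene from which Zfp42 arose by retroposition, rose by 0.50 (adjusted p = 8.83e-07). The 8 not called were Sall1, Sall3, Tfap2b, Tfap2d, Esrra, Sox1, Sox3 and Pou3f1, with changes from -0.02 for Sall3 to 0.22 for Sall1. Tfap2b, Tfap2d and Esrra lay under the receptor percentile of 4.19 on every wild-type array, and Sall1 read 3.93 to 4.23 in wild type. A missing call says little about genes at such levels.

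The wider pluripotency network also split. Of 28 other genes of the network measured, 10 were higher, 5 lower and 13 not called in the double knockout, with a median of 0.08. In this comparison 18.5% of all tested probe sets were called higher and 19.8% lower, so calls in both directions are not particular to the list. Klf4, a Krüppel-like factor that helps to reprogram cells, rose from 6.06 to 7.87 (log2 change 1.82, SE 0.12, limma adjusted p = 3.76e-09). Fbxo15, a target gene of OCT4 and SOX2, rose by 1.63 (adjusted p = 7.44e-06) and Mycn, a MYC family factor, by 0.52 (adjusted p = 3.65e-06). Nr5a2, a nuclear receptor that can bind the Pou5f1 promoter, changed by -1.07 (adjusted p = 2.42e-08) and the chromatin remodeller gene Smarcad1 by -0.44 (adjusted p = 3e-05). So Esrrb and Nr5a2, both nuclear receptor genes, were lower in the same arrays in which Klf4 and Fbxo15 were higher. With arrays centred the list stood at 6 higher and 6 lower.

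Genes of the first embryonic lineages were divided as well, with 6 of 20 higher, 5 lower and 9 not called, and a median of -0.04. The share called over all tested probe sets was 38.3%. Eomes, a T-box factor of the trophectoderm, rose by 0.86 from a wild-type mean of 3.79 that lies under the receptor percentile, and Krt8, an epithelial keratin, rose by 1.22 (limma adjusted p = 0.00024). Ets2 rose by 0.35. Fgfr2, the receptor for FGF4 in the trophectoderm, changed by -0.80 (adjusted p = 7.48e-05) and Gata3, another trophectoderm factor, by -0.57 (adjusted p = 0.0004). The lower count was 8 with arrays centred and 2 to 5 over the fits without 1 array.

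Among 19 measured regulators that act with the members, 7 were lower, 2 higher and 10 not called, with a median of -0.11. The background was again 38.3% of all tested probe sets. Pou2f2, which encodes another octamer-binding factor, changed by -0.62 (limma adjusted p = 8.29e-07), and Sox15, another SOX family factor, by -0.56 (adjusted p = 0.000358). Tet3, the dioxygenase from whose action DPPA3 shields the maternal genome, changed by -0.30 (adjusted p = 0.000699). Tet1 changed by -1.17 on its brightest probe set (adjusted p = 0.000215), while its other probe sets changed by 0.18 and 0.30 without a call. Kdm1a, a histone demethylase found in complexes with HDAC1 and HDAC2, rose by 0.27. The lower count was 12 with arrays centred.

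**Figure D5:**
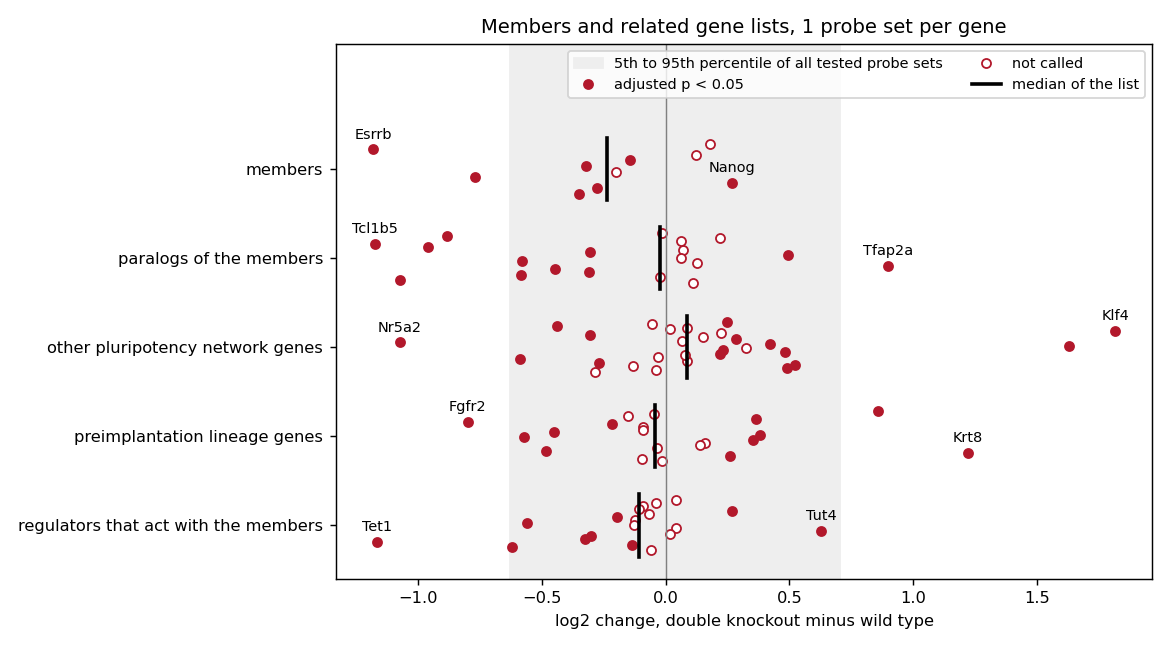
Log2 change between double knockout and wild type for the 10 members and for 4 lists of related genes, with 1 probe set per gene, the brightest. Filled points passed an adjusted p of 0.05, black bars are list medians, and the grey band spans the 5th to 95th percentile of all tested probe sets, -0.63 to 0.71. Esrrb and Sox2 are the members outside the band.

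Markers of other ovarian cells were low beside those of the oocyte. Some still lay above the receptor percentile in wild type: 6 of 10 for granulosa cells, 4 of 10 for theca and stroma, and 2 of 8 for blood, immune and endothelial cells. Several of the markers moved in the double knockout, in a comparison where 38.3% of all tested probe sets were called. The summed linear level of 10 granulosa cell markers was 197 to 224 in wild type and 230 to 278 in the double knockout, where 4 of them were called higher (Wt1, Hsd3b1, Inha and Gatm) and 1 lower (Kitl). For 10 theca and stroma markers the sums were 149 to 156 and 157 to 161, with 1 called, Acta2. For 8 blood, immune and endothelial markers they were 449 to 507 and 255 to 311, with Pecam1 lower (-1.37) and Cd52 (0.76) and Cd68 (0.38) higher, the other 5 not called. Of 12 oocyte markers 4 were lower in the double knockout and 8 not called, beside the same 38.3% of all tested probe sets. Figla, an oocyte transcription factor, changed by -0.56 and Ddx4, a germ cell helicase, by -0.32. The part of these shifts in the members' changes was not tested.

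As a description over the 16 arrays, the probe sets most like each called member are given by Pearson's r, with r over the 12 arrays outside the double knockout after it. Arrays of 1 genotype stand together, and r was lower over the 12 arrays for every pair. For Esrrb they were Atxn1 (0.983, then 0.820) and Dock2 (0.983, then 0.821), and for Sox2 Ubqln2 (0.916, then 0.647) and Gdap1 (0.915, then 0.543). Tcl1 was most like H2aw (0.941, then 0.886) and Rpap1 (0.936, then 0.913), and Tfap2c most like Prpsap2 (0.908, then 0.746) and Zfp414 (0.905, then 0.699). Lin28a 10517159 was most like Spop (0.971, then 0.649) and B3galnt1 (0.967, then 0.567). The other Lin28a probe set, 10508907, was most like Nsd1 (0.923, then 0.847) and Dnajc13 (0.921, then 0.844). Dppa3 10541515 was most like Rps24 (0.947, then 0.905) and Txn1 (0.944, then 0.906), and 10604135 most like Mgat2 (0.954, then 0.883) and Med14 (0.953, then 0.790). For Pou5f1 they were Pold3 (0.856, then 0.706) and Snd1 (0.854, then 0.466), and for Nanog Aak1 (0.860, then 0.458) and Ttl (0.850, then 0.319).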

How the data were processed

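Total RNA of 80 oocytes per array was amplified, labelled with biotin and hybridized, per the labels' protocols and the series' design text. The authors deposited 1 value per probe set and array for 35556 probe sets, read as log2 from their range because no base is stated, and all folds rest on that. For these log2 values the authors used MAS5, per the submitters' processing notes (version not given), and the design text also names GeneSpring v7, SAM and EASE. How these were combined is not stated. Values were used as deposited, without renormalization.

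The platform annotation gave 1 symbol to 21218 probe sets, several to 1881 and none to 12457. A linear model with 1 mean per genotype was fitted to the 21218 on all 16 arrays with limma 3.58.1 in R 4.3.3 (lmFit, contrasts, eBayes, two-sided), with Benjamini-Hochberg adjustment over all 21218 and a threshold of 0.05, and was tested on simulated data. A probe set past the threshold is called. In the lists a gene stands for its brightest probe set. Named genes were every member probe set, every measured paralog, up to 5 genes of each other list, ranked by adjusted p for the double knockout against wild type, and the 2 likest probe sets of each called member. Members, lists and this rule were chosen with earlier results of these data known. Same-numbered arrays of different genotypes did not deviate together (0 of 24 pairs had a correlation over 0.1), so replicate numbers were not used as pairs. Promoter sequences are RefSeq's, of assembly GRCm38.p6. The array number limits the precision.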

Additional observations from a re-analysis of the deposited data

Results flagged for a closer look

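Among the 48 sets of 4 arrays (12 probe sets in 4 genotypes), 6 held an array far from the other 3, where about 1 in 20 would by chance; the gap is given as a share of the set's range. For Pou5f1 these were wild-type replicate 4, at 10.76 with the others at 10.79 (gap 0.833), and replicate 4 of the group labelled Hdac2 knockout, at 10.66 with the others at 10.75 to 10.76 (gap 0.941). Lin28a 10517159 stood high in Hdac1 knockout replicate 1, at 7.41 with the others at 7.22 to 7.24 (gap 0.906). Zfp42 stood high in double-knockout replicate 2, at 4.52 with the others at 3.98 to 4.04 (gap 0.895). Esrrb stood low in replicate 1 of the group labelled Hdac2 knockout, at 6.25 with the others at 6.44 to 6.45 (gap 0.915), and in double-knockout replicate 3, at 4.97 with the others at 5.61 to 5.67 (gap 0.911).

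On the log2 scale the double knockout departed from the sum of the single changes for 4 of 12 member probe sets, by the interaction in limma. The background was 23.3% of all tested probe sets, and the Hdac2 probe set does not check the deletion of Hdac2. The 4 were Sox2 (departure -0.87, limma adjusted p = 0.0208), Lin28a 10517159 (-0.71, adjusted p = 5.94e-05), Dppa3 10541515 (0.39, adjusted p = 0.016) and Esrrb (-1.01, adjusted p = 0.000798).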

How the results depend on the processing

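The calls of Esrrb, Sox2 and Lin28a 10517159 in the double knockout against wild type, against each single knockout and in the interaction held under every alternative run. A 1.4-fold limit left 3 of the 12 member probe sets in each of the comparisons of the double knockout, to wild type, to the Hdac1 knockout and to the group labelled Hdac2 knockout. It left 3472, 3518 and 2576 of all probe sets in them, 454 for the group labelled Hdac2 knockout against wild type, 469 between the single knockouts and 2685 for the interaction. In the group labelled Hdac2 knockout 1 member, Tcl1, was called against wild type with arrays centred, with dim probe sets left out or with an intensity trend. Without dim probe sets, 24 of all were called in the Hdac1 knockout.

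Leaving out 1 array at a time gave 6 to 10 called members in the double knockout against wild type, 7 to 8 against the Hdac1 knockout, 5 to 8 against the group labelled Hdac2 knockout (8 without double-knockout replicate 1) and 0 to 1 between the single knockouts (Esrrb, 0.35, limma adjusted p = 0.0187, without double-knockout replicate 3). For all probe sets the ranges were 10 to 30 in the Hdac1 knockout (30 without its replicate 4) and 683 to 1267 in the group labelled Hdac2 knockout, where leaving out wild-type replicate 3 gave 770, wild-type replicate 4 gave 722, and that group's replicates 1 and 4 gave 683 and 716. Between the single knockouts the range was 678 to 1364, with 794 and 785 without Hdac1 knockout replicates 1 and 3 and 752 and 678 without replicates 1 and 4 of the group labelled Hdac2 knockout. The cause was not tested. With the replicate number as a block, 9 members and 7885 of all probe sets were called in the double knockout against wild type. Of all probe sets, 950 were then called in the group labelled Hdac2 knockout and 12 in the Hdac1 knockout. Whether equal numbers pair the arrays is not stated, and same-numbered arrays did not deviate together. Alternatives for the gene lists were chosen after seeing the data. Dim values limit what can be said of Nanog and Zfp42.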
